A study of Mus musculus with 24 samples.

Results

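The genes of the urea cycle and of amino acid breakdown were followed through the livers of fasted male mice that differed in Rab30 and Cpt2. The group holds 47 of the 54532 genes in the count table, chosen by gene symbol from a list of enzymes and mitochondrial carriers, and each symbol was found once, as a protein-coding gene. These genes were chosen with earlier results of these data known. By role they fall into 8 genes of the urea cycle, 6 for glutamate and the transaminases, 5 for tyrosine, 4 for histidine, 7 for serine, glycine and glyoxylate, 4 for proline and ornithine, 12 for the branched chain amino acids and propionate, and 1 for lysine.

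Total RNA from 24 livers of young adult males, taken after a 24 h fast, was sequenced in 6 genotype groups of 4 livers. Rab30KO mice lack Rab30 exon 4 in the whole body, and their wild-type littermates are the Rab30 Ctrl group. The remaining groups carry floxed alleles: the Rab30;Cpt2 floxed control (ff;ff, littermates of the double knockouts and without Cre), the liver knockouts Rab30L-/- and Cpt2L-/-, and the double liver knockout DKO, which lacks both genes in hepatocytes. Cre in the 3 liver knockouts was driven by the albumin promoter, so that other liver cells keep the genes, and Cre is also a difference from the floxed control. By the labels only the floxed controls are littermates of DKO, so that comparisons of Rab30L-/- or Cpt2L-/- with the floxed controls or with DKO, and the interaction, set different litters against each other, and litter cannot be told apart from genotype there.

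During a fast the liver breaks down amino acids released from muscle, sending their carbon to glucose and ketone bodies and their nitrogen to urea. Cps1 and Otc start the urea cycle in the mitochondrion, and Ass1 and Asl carry it on in the cytosol, mostly in hepatocytes near the portal vein. Cpt2 completes the carnitine-dependent entry of long chain fatty acids into mitochondria for oxidation, and Rab30 is a small GTPase of the Golgi apparatus.

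Total counts per library ranged from 11801027 to 24497738, with a median of 14358966. Counts over the whole gene, which take in exons outside the deleted one, did not follow the labels for the targeted genes in every comparison. Cpt2 was at 95.3 to 167 CPM (counts scaled to library size by TMM) in the livers labelled Cpt2L-/- and at 128 to 139 in the floxed controls, and Rab30 was at 101 to 231 CPM in livers labelled DKO against 25.9 to 44.6 in the floxed controls. In DKO against Rab30L-/- livers Cpt2 was 2.09-fold lower (adjusted p = 0.000449), but Cpt2 was high in Rab30L-/-, at 169.7 to 268 CPM, and DKO against floxed controls did not pass (-0.34 ± 0.13, adjusted p = 0.0911). Rab30 was 9.39-fold higher in DKO than in Rab30L-/- livers (adjusted p = 0.000325), although both are labelled as lacking it. Rab30 was 3.97-fold higher in Cpt2L-/- than in floxed control livers (adjusted p = 2.66e-05), and in Rab30L-/- livers it was at 10.4 to 26.6 CPM (-1.10 ± 0.29 against floxed controls, adjusted p = 0.174). The whole-body pair overlapped for Rab30, at 5.39 to 17.4 CPM in Rab30KO and 6.64 to 30.1 in Rab30 Ctrl livers (-0.34 ± 0.51, not passing). The study measured the targeted genes by quantitative PCR and Rab30 by immunoblot as well, which were not analysed here. The group names stand for libraries so labelled. Hepatocyte markers were abundant in every library, Alb alone taking 3.16% to 9.78% of counts, while the summed lymphocyte markers reached at most 6.21 CPM, exocrine pancreas markers 9.26 CPM and kidney markers 0.228 CPM. In bulk liver, fewer cells of a type and less RNA per cell cannot be told apart.

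The promoters of the 3 members that fell most and had an entry in the RefSeq promoter table are printed to show the start regions of the genes on which the results turn. Each is 300 bases long, 250 before and 50 after the start, on the plus strand of GRCm38.p6. Hal is at chr10:93488518-93488817, Ass1 at chr2:31470020-31470319 and Otc at chrX:10252055-10252354. Capitals mark TTTATA, the TATA box TATAAA read on the other strand, starting 28 bases before the Hal start, and the E-box CACGTG starting 36 bases before the Ass1 start. The RefSeq start used for Ass1 lies downstream of the start in the count table. The Otc window held none of the 7 motifs searched.
Hal: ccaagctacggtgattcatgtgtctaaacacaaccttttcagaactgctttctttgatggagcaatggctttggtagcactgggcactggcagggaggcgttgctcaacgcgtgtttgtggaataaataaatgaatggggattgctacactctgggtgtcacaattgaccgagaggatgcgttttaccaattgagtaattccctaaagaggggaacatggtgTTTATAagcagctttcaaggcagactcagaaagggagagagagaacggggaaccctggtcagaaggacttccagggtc
Ass1: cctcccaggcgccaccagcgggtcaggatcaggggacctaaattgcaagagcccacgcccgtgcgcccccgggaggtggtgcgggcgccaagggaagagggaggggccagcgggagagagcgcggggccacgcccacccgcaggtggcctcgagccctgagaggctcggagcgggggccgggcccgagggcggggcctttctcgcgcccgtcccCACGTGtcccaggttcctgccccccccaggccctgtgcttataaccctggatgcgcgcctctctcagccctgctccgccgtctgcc
Otc: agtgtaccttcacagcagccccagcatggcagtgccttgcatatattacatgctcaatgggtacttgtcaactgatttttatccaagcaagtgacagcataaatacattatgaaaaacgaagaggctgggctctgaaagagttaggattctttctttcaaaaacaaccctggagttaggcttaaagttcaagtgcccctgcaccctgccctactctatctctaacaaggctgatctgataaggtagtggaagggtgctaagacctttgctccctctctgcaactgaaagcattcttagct

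Entries were found for 39 of the 47 members, with 46 promoters, and those without an entry included Cps1, Sdsl, Gpt, Sds, Asl, Dbt and Gls2. Both strands were searched. The nuclear receptor half-site AGGTCA was in 15 of the 46 member promoters (32.6%) and in 16.3% of all 32851 promoters of this length. The TATA box was in 13% of member promoters against 13.6% of all, the E-box in 8.7% against 7.15%, the forkhead element GTAAACA in 2.17% against 3.65%, and the C/EBP-ATF element TGATGCAA in 2.17% against 0.895%. The cAMP response element TGACGTCA was in 0 member promoters and in 1.79% of all. These are letter matches in a short window and not evidence of binding.

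Levels were compared between genes by the authors' FPKM, which is scaled for gene length. In floxed control livers the highest mean levels were 2849 FPKM for Tat, 2108 for Ass1, 1941 for Cps1 and 1701 for Hpd. Mccc1 was lowest, at 4.54 FPKM. In Cpt2L-/- livers Cps1 ranked first, at 1229.6 FPKM, Tat had a mean of 737 FPKM and Ass1 of 521 FPKM. Sds had rank 10 of 47 in the floxed controls, at 270.04 FPKM, and rank 28 in Cpt2L-/- livers, at 38.6 FPKM.

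Livers labelled as lacking Cpt2 had lower mRNA for most of these enzymes. Of the 47 members 33 were lower and 0 higher in Cpt2L-/- than in floxed control livers, at an adjusted p under 0.05 and a change of at least 1.2-fold in edgeR's quasi-likelihood test, where 11.9% of the 13270 genes tested were lower and 11.9% were higher. In DKO against Rab30L-/-, both labelled as Rab30 knockouts, 31 members were lower and 0 higher, against 15.8% and 14.9% of 13292 genes. The median log2 fold change of the members was -0.82 in each comparison, and that of all genes tested was -0.0035 and -0.012. DESeq2 and limma-voom also called 0 members higher, and the 2 members above 0 in each comparison were Got2 and Gpt2 in the first and Aldh6a1 and Hibch in the second.

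Those comparisons share no liver, and 25 members were lower in both, where 13% of the 12970 genes tested in both changed in the same direction in both. A further 14 members passed in 1 of them and 8 in neither. By role, the members lower in both were 5 of 8 in the urea cycle, 2 of 6 for glutamate and the transaminases, 4 of 5 for tyrosine, 3 of 4 for histidine, 4 of 7 for serine, glycine and glyoxylate, 3 of 4 for proline and ornithine, 4 of 12 for the branched chain amino acids and propionate, and 0 of 1 for lysine. Across the 47 genes, which are not independent and share libraries within each comparison, the fold changes of both comparisons had a Pearson r of 0.69 and a Spearman rho of 0.61. The groups did not overlap for 33 and 31 members, against 26.7% and 31.5% of all genes tested. A member that passed in 1 comparison and not in the other is not thereby shown to differ between them: that difference is the interaction given further on, which passed for Bcat2 and Hibadh.

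**Figure D1:**
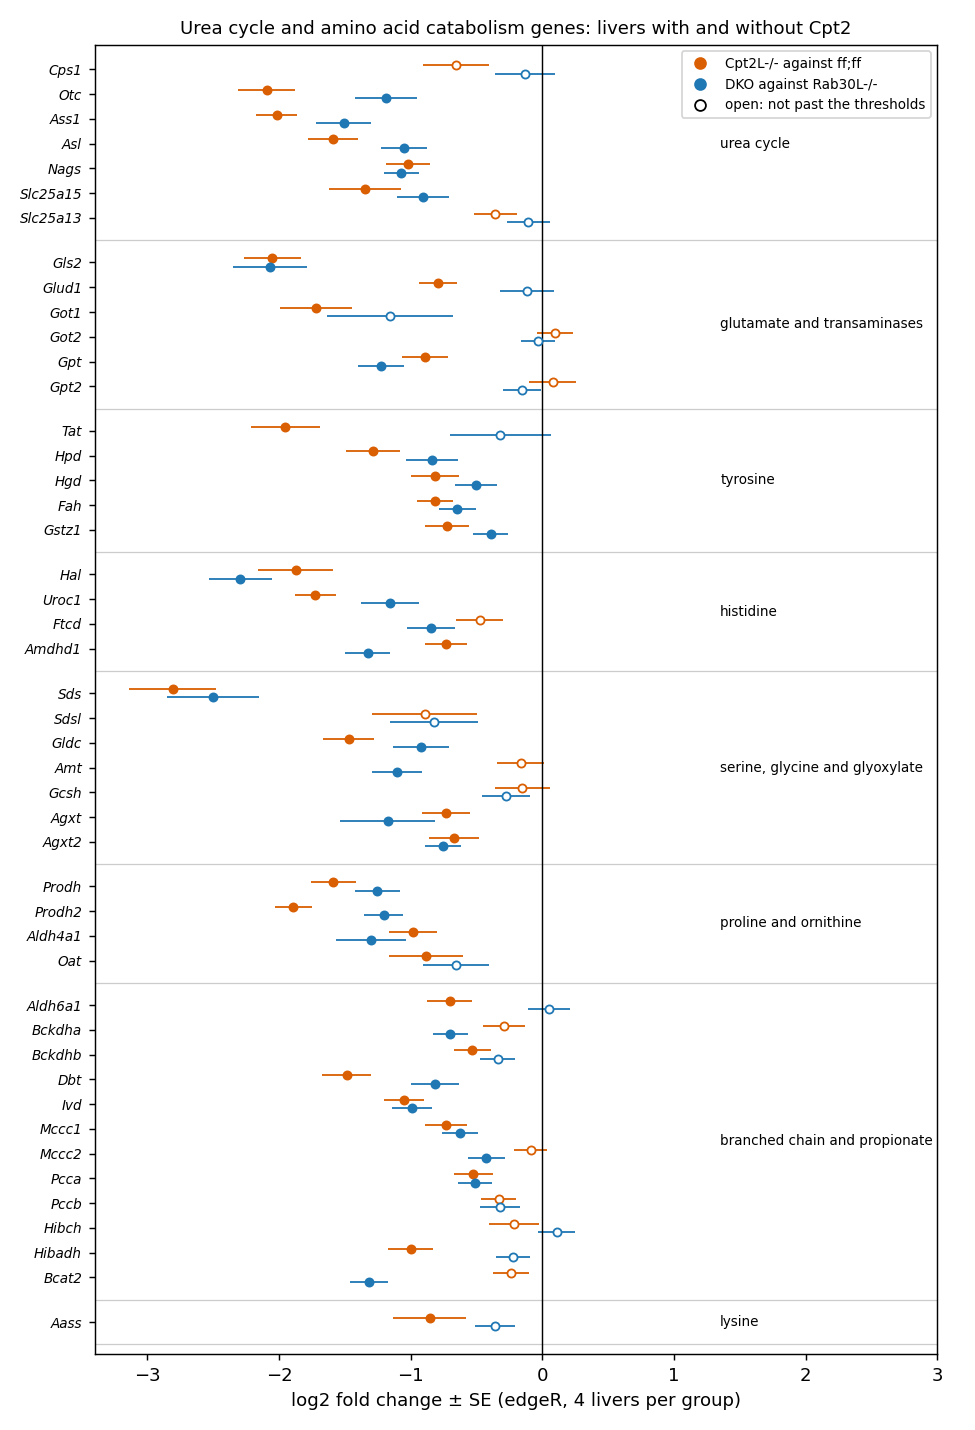
Each point is the log2 fold change of 1 member with its SE, for 46 of the 47 members, in Cpt2L-/- against ff;ff (orange) and in DKO against Rab30L-/- (blue), from 4 livers per group, with members stacked by role on the vertical axis. Filled points passed the thresholds, and all of these lie left of 0, from Sds at -2.81 to Gstz1 at -0.39.

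Most hepatocyte and periportal markers were also lower in both comparisons, while pericentral markers were lower mainly in Cpt2L-/- livers. Of 6 hepatocyte markers 5 were lower and 0 higher in each comparison, with Alb at -1.41 and -0.37 (the second not past the threshold), and their summed level was 89789 to 113370 CPM in floxed controls, 39288 to 51950 in Cpt2L-/-, 80213 to 87571 in Rab30L-/- and 52403 to 64831 in DKO livers. Periportal markers, which share the zone of the urea cycle, were lower for 4 and higher for 1 of 6 in Cpt2L-/- livers and lower for 5 and higher for 1 in DKO livers, with summed levels of 6985 to 9217 CPM in floxed controls, 5146 to 6931 in Cpt2L-/-, 7002 to 8919 in Rab30L-/- and 4769 to 6414 in DKO livers. Pericentral markers were lower for 5 and higher for 1 of 7, and lower for 3 and higher for 0, with 11326 to 15698, 6881 to 10976, 6324 to 12382 and 10250 to 13666 CPM in the same order. No hepatocyte, periportal or pericentral marker was at 0. Of all genes tested, 11.9% were lower and 11.9% higher in Cpt2L-/- livers, and 15.8% and 14.9% in DKO against Rab30L-/-. Kupffer cell markers were lower for 3 and 5 of 6, red blood cell markers for 4 and 1 of 4, bile duct markers for 1 of 4 and 1 of 3, endothelial markers for 1 and 0 of 5, and stellate cell markers for 0 of 6. The part of these shifts in the members' result was not tested.

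**Figure D2:**
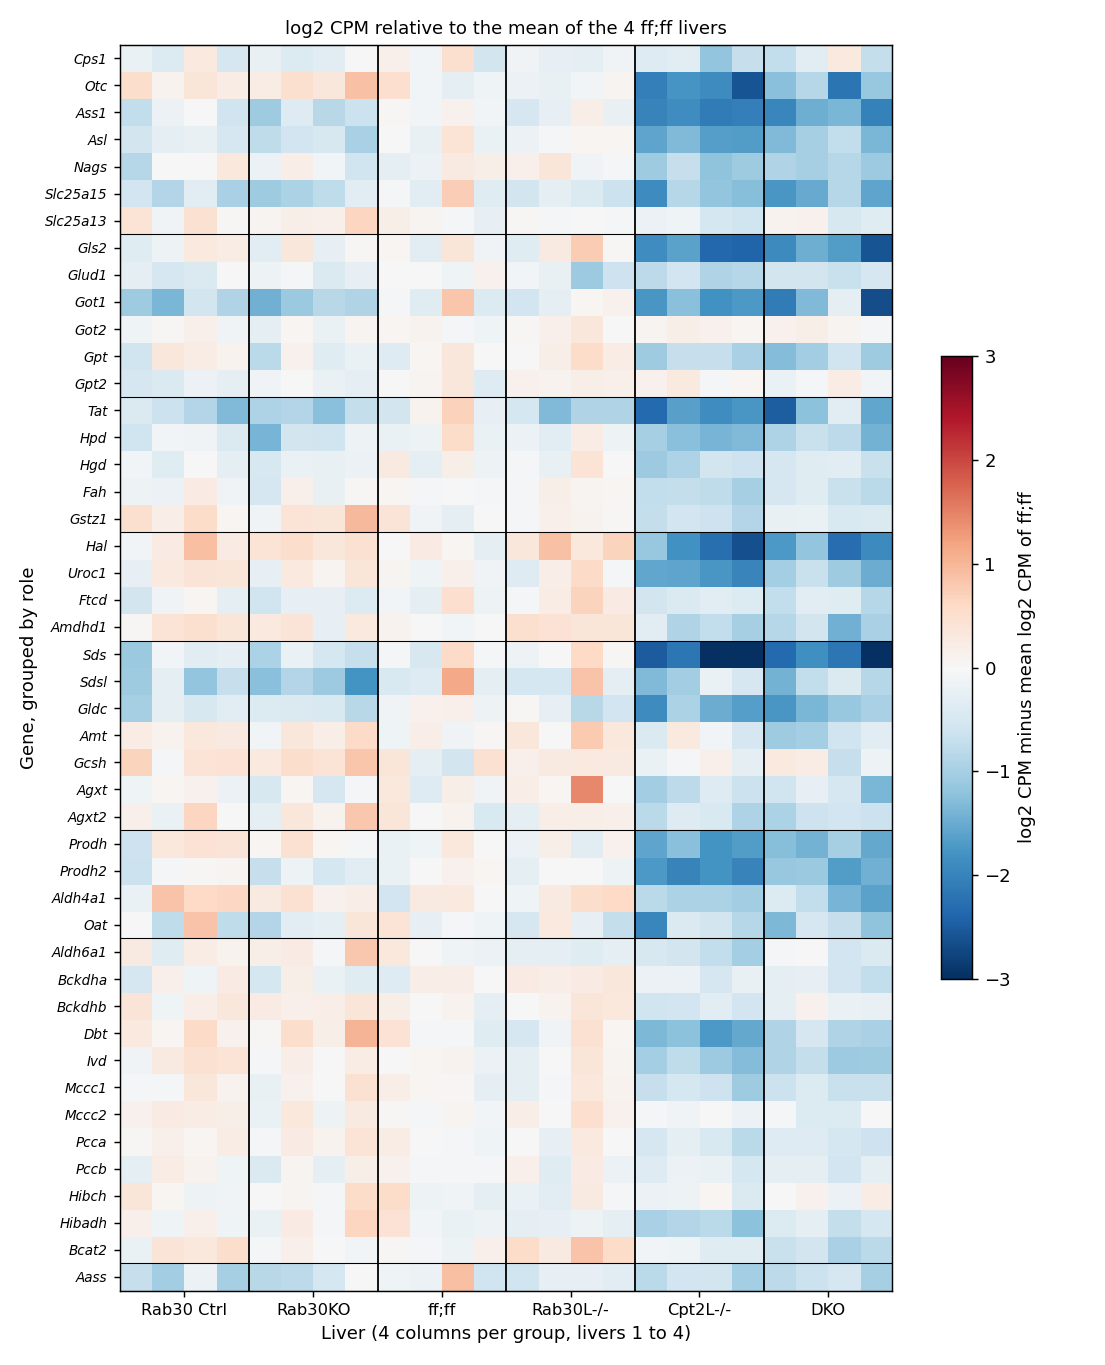
Colour gives the log2 CPM of 46 of the 47 members (rows, by role) in each of the 24 livers (columns, 4 per group), relative to the mean of the 4 ff;ff livers; blue is lower. The Cpt2L-/- and DKO columns are blue for most rows, and the rows of Got2 and Gpt2 are close to white.

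Within the urea cycle, Otc, the enzyme that makes citrulline, was at 482, 321, 279 and 309 CPM in floxed controls and at 81.6, 99.1, 91.5 and 56.5 in Cpt2L-/- livers. It was at 301, 293, 322 and 362 CPM in Rab30L-/- and 143, 189, 74.3 and 154 in DKO livers. No liver of either Cpt2 knockout group reached the lowest liver without that deletion. Otc was 4.27-fold lower in Cpt2L-/- (log2 fold change -2.09 ± 0.22 SE, adjusted p = 2.51e-05) and 2.28-fold lower in DKO (-1.19 ± 0.24, adjusted p = 0.00362).

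Ass1 and Asl join citrulline to aspartate and release arginine. Ass1 was at 5112, 4682, 5475 and 4721 CPM in floxed controls against 1243, 1367, 1163 and 1203 in Cpt2L-/-, and at 3526, 4229.9, 5761 and 4260.5 in Rab30L-/- against 1292, 1799, 1915 and 1219.7 in DKO livers. The 4 Cpt2L-/- livers lay within 1163 to 1367 CPM, a narrow band under every control, and neither pair of groups overlapped. The fall was 4.05-fold (log2 -2.02 ± 0.16 SE, adjusted p = 3.13e-06) and 2.84-fold (-1.51 ± 0.21, adjusted p = 0.000385). Asl was at 2593, 2211, 3451 and 2261 CPM in floxed controls and 860.2, 1040.3, 816 and 806 in Cpt2L-/-, and at 2292, 2503, 2681 and 2699.7 in Rab30L-/- and 1036, 1305, 1553 and 1003 in DKO livers. It was 3.01-fold and 2.07-fold lower, with log2 fold changes of -1.59 ± 0.19 and -1.05 ± 0.17 and adjusted p of 6.62e-05 and 0.00119, again without overlap.

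Slc25a15 carries ornithine into the mitochondrion. Its CPM was 745, 622, 1303 and 605 in floxed controls, where liver 3 stood highest, against 211, 427, 341 and 320.0 in Cpt2L-/- livers. Rab30L-/- livers had 533, 632, 575 and 501 CPM and DKO livers 231, 271, 432 and 259. Log2 fold changes were -1.35 ± 0.27 (adjusted p = 0.00328) and -0.91 ± 0.20 (adjusted p = 0.00523), and the groups did not overlap. Nags, which makes the N-acetylglutamate that Cps1 needs, fell by 1.02 and 1.07 on the log2 scale. Slc25a13, which exports aspartate for Ass1, had values of -0.36 and -0.11 and passed in neither.

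Cps1, which fixes ammonia as carbamoyl phosphate, did not pass either test. Its CPM was 11343, 9703, 14270.0 and 6993 in floxed controls and 7836, 8259.5, 4541 and 6342 in Cpt2L-/-, 9536, 8657, 8473 and 9462 in Rab30L-/- and 6139, 8088, 12516 and 6190.5 in DKO livers. These groups overlap, and DKO liver 3 was higher than every Rab30L-/- liver. Log2 fold changes were -0.66 ± 0.25 (adjusted p = 0.0745) and -0.13 ± 0.23 (adjusted p = 0.701). The first would pass without floxed control liver 4 (log2 -0.82, adjusted p = 0.0312), by DESeq2's Wald test, and without a filter on low counts.

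**Figure D3:**
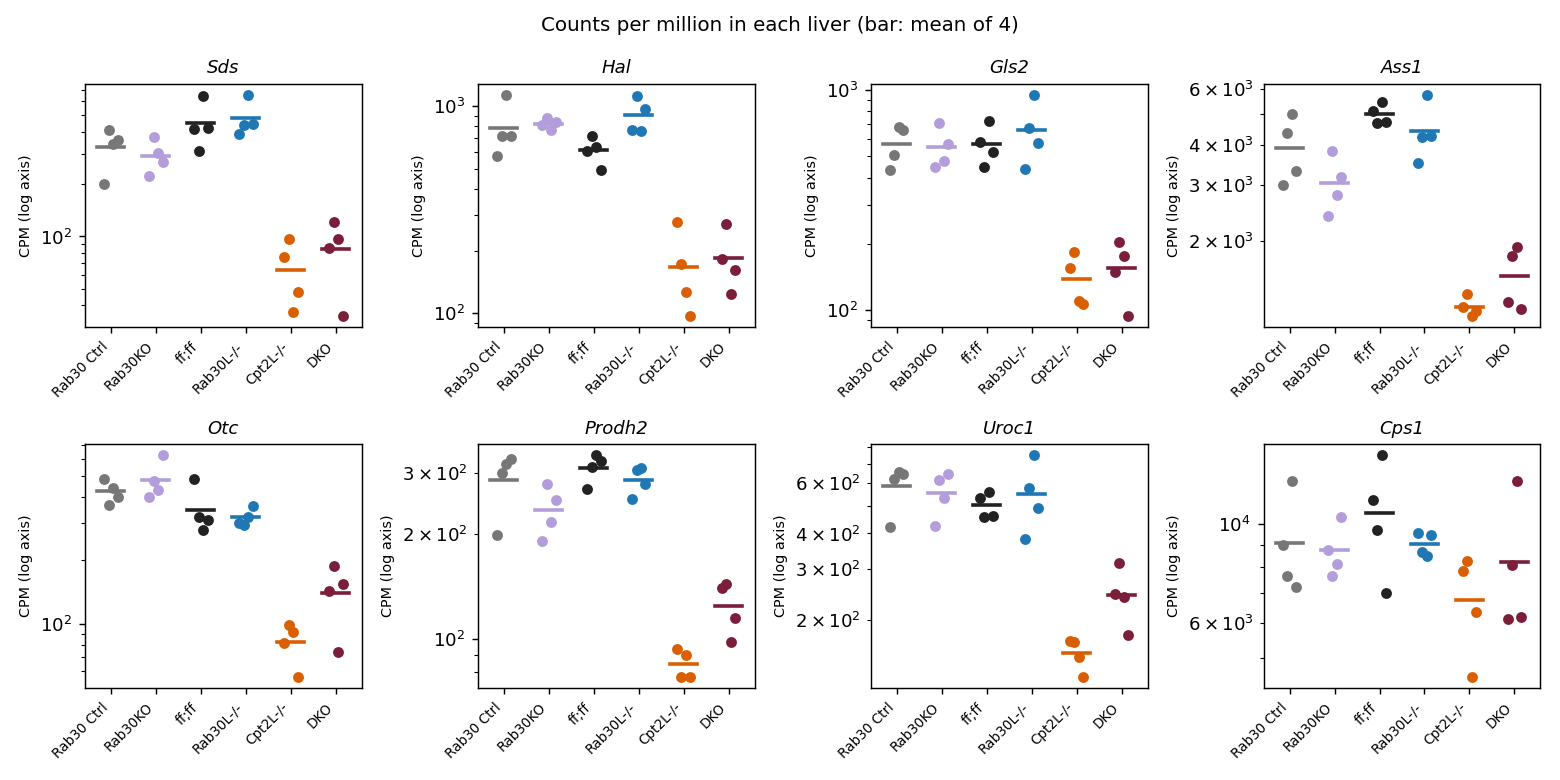
Points are single livers and bars the mean of 4, in CPM on a log axis that differs between panels, for 7 members with large falls and for Cps1, over the 6 groups. For Sds, Hal, Gls2, Ass1, Otc, Prodh2 and Uroc1 the Cpt2L-/- and DKO livers lie under the floxed control and Rab30L-/- livers, while for Cps1 they overlap.

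Gls2, the liver glutaminase that frees ammonia from glutamine, was at 582, 447, 726 and 521 CPM in floxed controls and 155, 183, 109 and 107 in Cpt2L-/- livers. Rab30L-/- livers held 436, 673, 952 and 572 CPM and DKO livers 149, 203, 177 and 93.8. The groups were far apart in both comparisons, with a 4.14-fold and a 4.2-fold fall (log2 -2.05 ± 0.22 and -2.07 ± 0.28 SE, adjusted p = 3.08e-05 and 0.000449). Gpt, the cytosolic alanine transaminase, was at 373, 502, 613 and 481 CPM in floxed controls against 229.9, 298, 299 and 245 in Cpt2L-/-, and at 489, 543, 706 and 561 in Rab30L-/- against 197, 234, 318 and 231 in DKO. It was 1.85-fold and 2.34-fold lower (log2 -0.89 ± 0.17 and -1.23 ± 0.17, adjusted p = 0.00235 and 0.000456), and no Cpt2 knockout liver reached its controls.

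The mitochondrial transaminases Gpt2 and Got2 were close to 0 in both comparisons, at 0.08 and -0.16 for Gpt2 and 0.09 and -0.03 for Got2. Got1, the cytosolic aspartate transaminase, was lower in Cpt2L-/- livers (-1.72 ± 0.27, adjusted p = 0.000632) and had -1.16 ± 0.48 in DKO against Rab30L-/- (adjusted p = 0.101). Its DKO livers ranged from 218 to 1152 CPM, liver 3 being highest. Got1 passed there in 1 of the fits that left out a liver. Glud1, which releases ammonia from glutamate, was lower in Cpt2L-/- (-0.79 ± 0.15, adjusted p = 0.00168) and was at -0.12 in the other comparison. Got1 and Got2, and Gpt and Gpt2, catalyse the same reactions in different compartments, and the difference within each pair was not tested.

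Of the 5 genes for tyrosine breakdown, mRNA was lower for 5 in Cpt2L-/- livers, where 11.9% of all genes were lower, and for 4 in DKO against Rab30L-/-, where 15.8% were. Hpd, which makes homogentisate, was at 3017, 3114, 5068 and 3016 CPM in floxed controls and 1732, 1446, 1308 and 1385 in Cpt2L-/-, and at 3082, 2796, 4052 and 3139 in Rab30L-/- and 1809, 2185, 1994 and 1287 in DKO livers. No values overlapped, although floxed control liver 3 stood well above its group. The falls were 2.44-fold (log2 -1.29 ± 0.21, adjusted p = 0.000602) and 1.79-fold (-0.84 ± 0.20, adjusted p = 0.00761). The later enzymes Hgd (-0.81 and -0.51), Gstz1 (-0.73 and -0.39) and Fah (-0.82 and -0.65) had smaller log2 fold changes and passed in both.

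In DKO against Rab30L-/-, leaving out any of the 8 livers ended the call for Gstz1 (adjusted p 0.0515 to 0.0978), and leaving out DKO liver 1, 2 or 4 or Rab30L-/- liver 3 or 4 ended that for Hgd (up to 0.0917). Tat, the transaminase that begins the pathway and a gene induced by fasting hormones, was lower in Cpt2L-/- (-1.95 ± 0.27, adjusted p = 0.000185), from 4348, 6883, 10251 and 5399.8 to 1269, 2069, 1764 and 1913 CPM. In DKO livers Tat was scattered, at 1156, 2722, 5003 and 2156 CPM against 4438, 2528, 3437 and 3388 in Rab30L-/-, and did not pass (-0.32 ± 0.38, adjusted p = 0.565). Fah lies 8.13 Mb from Rab30 on chromosome 7, and it passed in none of the comparisons of Rab30 genotypes alone.

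Hal and Uroc1 carry out the first steps of histidine breakdown. Hal was at 606, 720.4, 632 and 493 CPM in floxed controls and 276, 174, 126 and 97 in Cpt2L-/-, and at 764, 1122, 762 and 972 in Rab30L-/- and 183, 269, 124 and 162 in DKO livers. Every liver of the Cpt2 knockout groups was lower than every liver of its comparison group. Hal fell 3.67-fold (log2 -1.87 ± 0.29, adjusted p = 0.000533) and 4.91-fold (-2.29 ± 0.24, adjusted p = 8.50e-05). Uroc1 was at 532, 457, 557 and 462 CPM in floxed controls and 169, 168, 149 and 127 in Cpt2L-/-, then 382, 576, 747 and 491 in Rab30L-/- and 245, 316, 241 and 178 in DKO. It was 3.3-fold and 2.23-fold lower without overlap (log2 -1.72 ± 0.15 and -1.16 ± 0.22, adjusted p = 8.75e-06 and 0.00263). Amdhd1, the next enzyme, was lower in both, with log2 fold changes of -0.73 and -1.33. Ftcd, which passes the formimino group to folate, passed in DKO against Rab30L-/- (-0.85) and was at -0.48 in Cpt2L-/-.

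Sds, serine dehydratase, which turns serine into pyruvate for glucose synthesis, had the largest fall of the 47 in these comparisons. The gene (ENSMUSG00000029597) is at chr5:120476526-120483932 on the plus strand in the count table. It was at 417, 309.9, 649 and 421 CPM in floxed controls against 76.4, 96.8, 36.9 and 47.7 in Cpt2L-/- livers, and at 387, 439, 656 and 444 in Rab30L-/- against 85.5, 122, 96.3 and 34.8 in DKO livers. The lowest control liver was over the highest Cpt2 knockout liver by a wide margin. Sds fell 7.01-fold (log2 -2.81 ± 0.33 SE, adjusted p = 0.000121) and 5.66-fold (-2.50 ± 0.35, adjusted p = 0.000826). Sdsl, its close relative, had values of -0.89 and -0.82 and passed in neither.

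Of the glycine cleavage system, Gldc, its decarboxylase, was at 297, 349, 354 and 287 CPM in floxed controls and 86.2, 166, 115 and 102 in Cpt2L-/-, and at 328, 271, 179 and 216 in Rab30L-/- and 94.9, 124, 145 and 163 in DKO. The groups did not overlap, and the log2 fold changes were -1.47 ± 0.20 (adjusted p = 0.00016) and -0.92 ± 0.21 (adjusted p = 0.00802). Amt, the aminomethyltransferase, passed in DKO against Rab30L-/- (-1.10 ± 0.19, adjusted p = 0.00158) and not in Cpt2L-/- against floxed controls (-0.16), and Gcsh, the lipoyl carrier, in neither (-0.15 and -0.28). Agxt, which detoxifies glyoxylate, was lower in both (-0.73 and -1.18), with Rab30L-/- liver 3 at 767 CPM against 278 to 325 in the rest of its group. In Cpt2L-/- against floxed controls the Agxt groups overlapped slightly, and the call was lost in 1 fit over all 24 libraries. In DKO its call was lost without DKO liver 1, 3 or 4 (adjusted p up to 0.0784). Agxt2 passed in both (-0.67 and -0.75), and the first was lost without Cpt2L-/- liver 1 or 4 (up to 0.0754).

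Prodh and Prodh2 open the breakdown of proline and of hydroxyproline. Prodh2 was at 271, 314, 338 and 325 CPM in floxed controls and 93.5, 77.7, 89.5 and 77.8 in Cpt2L-/-, and at 254, 307, 311 and 279 in Rab30L-/- and 140.2, 144, 97.8 and 115 in DKO livers. It was 3.71-fold and 2.31-fold lower (log2 -1.89 ± 0.14 and -1.21 ± 0.15, adjusted p = 2.18e-06 and 0.000204), with no overlap. Prodh was at 283, 295, 403 and 329 and 108, 136, 94.1 and 102 CPM in the first pair of groups and at 289, 369, 256 and 352 and 134, 122, 164 and 111 in the second. Its log2 fold changes were -1.59 ± 0.17 (adjusted p = 3.10e-05) and -1.25 ± 0.17 (adjusted p = 0.000341), also without overlap.

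Aldh4a1, which completes proline breakdown to glutamate, was at 88.7, 159.8, 162 and 134 CPM in floxed controls, 76.1, 68.9, 68.7 and 64.5 in Cpt2L-/-, 122, 159.8, 192 and 199.5 in Rab30L-/- and 98.9, 79, 50.6 and 43.2 in DKO. The 4 Cpt2L-/- livers were tightly grouped, and neither comparison overlapped (log2 -0.98 ± 0.18 and -1.30 ± 0.27, adjusted p = 0.00168 and 0.00523). Oat, ornithine aminotransferase, passed in Cpt2L-/- (-0.88 ± 0.28, adjusted p = 0.0365) and not in DKO against Rab30L-/- (-0.65), and the first call was lost without Cpt2L-/- liver 3 or 4 or floxed control liver 1, 3 or 4 (up to 0.0989).

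Of the 12 members for branched chain amino acids and propionate 4 passed in both comparisons, 6 in 1 and 2 in neither. Of all genes 13% passed in both in the same direction, and 11.9% and 15.8% passed as lower in Cpt2L-/- against floxed controls and in DKO against Rab30L-/-. Dbt, the E2 core of the branched chain ketoacid dehydrogenase, was at 213, 155, 151 and 123 CPM in floxed controls and 61.7, 66.8, 47.7 and 54.1 in Cpt2L-/-. It was at 111.4, 147, 214 and 164 in Rab30L-/- and 84.3, 110.5, 84.6 and 79.9 in DKO livers. Neither pair overlapped, the second only narrowly, and the falls were 2.8-fold (log2 -1.49 ± 0.18, adjusted p = 9.57e-05) and 1.76-fold (-0.82 ± 0.18, adjusted p = 0.00635). Of the E1 subunits, Bckdha passed in DKO against Rab30L-/- and not in Cpt2L-/- (-0.70, against -0.29) and Bckdhb the other way round (-0.53, against -0.34), and the latter was lost without Cpt2L-/- liver 4 (adjusted p = 0.0563). Ivd, of leucine breakdown, was lower in both (-1.05 and -0.99), as were the carboxylase subunits Mccc1 (-0.73 and -0.63) and Pcca (-0.52 and -0.51). Without Cpt2L-/- liver 4 the first Pcca call was lost (adjusted p = 0.0858).

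Of their partner subunits, Mccc2 had -0.09 and -0.43, the second passing in all livers but not without DKO liver 1, 2 or 3 or Rab30L-/- liver 1, 3 or 4 (up to 0.124), and Pccb -0.33 and -0.32, passing in neither. In valine breakdown, Hibadh (-0.998) and Aldh6a1 (-0.71) passed in Cpt2L-/- and not in DKO against Rab30L-/- (-0.22 and 0.05), and Hibch (-0.22 and 0.11) passed in neither. Aass, which begins lysine breakdown, was lower in Cpt2L-/- (-0.86 ± 0.28, adjusted p = 0.0421). That call was lost without any of the 4 Cpt2L-/- livers or floxed control liver 1 or 3 (up to 0.121), and liver 3 of the controls was high, at 1716 CPM. DKO was at -0.36.

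Set against the floxed controls, which lack neither gene, DKO livers had 26 members lower and 0 higher where 8.24% of 13389 genes were lower. The median of the members was -0.76 and that of all genes -0.018. This comparison shares the floxed controls with Cpt2L-/- and the DKO livers with the comparison above. Its largest fall was again Sds (-2.42 ± 0.36, adjusted p = 0.00171), followed by Gls2 (-1.88 ± 0.24), Hal (-1.74 ± 0.23) and Ass1 (-1.69 ± 0.20), and Cps1 did not pass (-0.37 ± 0.28, adjusted p = 0.418). Of the 26 calls 20 held whichever liver was left out.

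In Rab30L-/- against floxed control livers 0 of 47 members passed in edgeR, where 0.479% of 13367 genes did. The unadjusted p was under 0.05 for 6 members, near the 11.2% of all genes. DESeq2 called 2 higher and 1 lower, where it called 2.23% of all genes, and limma-voom called 1 lower, where it called 1.79%. The members' log2 fold changes ran from -0.97 to 0.56 with a median of 0.02 (0.0022 over all genes), and the groups did not overlap for 4 members, where 6.38% of all genes did not overlap. Those 4 were Bcat2 (0.56 ± 0.14, adjusted p = 0.146), Hal (0.56 ± 0.19, 0.293), Amdhd1 (0.40 ± 0.13, 0.264) and Aldh6a1 (-0.31 ± 0.16, 0.483), which were picked out after their values were seen. Tat had the lowest value (-0.97 ± 0.28, adjusted p = 0.197).

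In the whole-body knockout, Rab30KO against Rab30 Ctrl, 0 members passed in edgeR, DESeq2 or limma-voom, where 0.022%, 0.0732% and 0.00732% of 13656 genes did. No member had an unadjusted p under 0.05, against 2.21% of all genes. The members' log2 fold changes ran from -0.45 to 0.24 with a median of -0.08 (-0.0028 over all genes), and the groups overlapped for every member, against 1.31% of all genes that did not. Ass1 was at 2993, 4380.3, 4997 and 3314 CPM in Rab30 Ctrl and 2392, 3839.6, 2795 and 3181 in Rab30KO livers, and Sds at 201, 408, 342 and 359 and 224, 375, 303 and 268. With 4 livers a group, the absence of a call does not show that levels were equal.

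Between the groups labelled as Cpt2 knockouts 1 member passed. In DKO against Cpt2L-/- livers Dbt was 1.57-fold higher (0.65 ± 0.15, adjusted p = 0.0411), at 84.3, 111, 84.6 and 79.9 against 61.7, 66.8, 47.7 and 54.1 CPM, without overlap, and 2.71% of 13306 genes passed. This call was lost without any 1 of the 4 Cpt2L-/- livers or DKO liver 1 or 2 (adjusted p up to 0.141). The members' median was 0.14 and that of all genes -0.0031, and 15 of 47 were below 0. Limma-voom called 8 members higher and 2 lower where it called 11.5% of all genes, and DESeq2 6 higher and 1 lower where it called 7.76%. The groups did not overlap for 7 members, near the 13% of all genes, which beside Dbt were Uroc1 (0.69 ± 0.17, adjusted p = 0.0576), Prodh2 (0.57 ± 0.14, 0.0553), Hibadh (0.50 ± 0.13, 0.0659), Bcat2 (-0.51 ± 0.13, 0.0619), Bckdhb (0.38) and Gstz1 (0.38).

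The difference between the Rab30 effects with and without Cpt2 was tested as an interaction over the 16 livers of the floxed control, Rab30L-/-, Cpt2L-/- and DKO groups, and passed for 2 of 47 members, where 4.06% of 14063 genes passed. The unadjusted p was under 0.05 for 12 members, near the 21.7% of all genes. Bcat2, the mitochondrial branched chain transaminase (ENSMUSG00000030826, chr7:45570153-45589711, plus strand), was at 43.2, 40.6, 37.9 and 46.5 CPM in floxed controls, 61.8, 50.8, 75.6 and 61.8 in Rab30L-/-, 39.7, 38.5, 32.7 and 32.6 in Cpt2L-/- and 26.3, 28.5, 21.5 and 23.8 in DKO livers. All Rab30L-/- livers were above all floxed controls and all DKO livers were below all Cpt2L-/- livers. The interaction was -1.07 ± 0.19 (adjusted p = 0.00408) and held whichever liver was left out (adjusted p 0.00262 to 0.0113).

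Hibadh, which oxidises hydroxyisobutyrate from valine, was at 386, 267, 247 and 255 CPM in floxed controls, 231, 240.2, 254 and 235 in Rab30L-/-, 145, 155, 162 and 122 in Cpt2L-/- and 213, 235, 174 and 198 in DKO livers. DKO livers lay above Cpt2L-/- livers, and Rab30L-/- overlapped the controls. Its interaction of 0.78 ± 0.21 (adjusted p = 0.0434) was lost without most of the livers, 13 of 16 (adjusted p up to 0.0961). Next by adjusted p, and not passing, were Prodh2 (0.69 ± 0.19, adjusted p = 0.0505), Amt (-0.94 ± 0.28, 0.0612), Aldh6a1 (0.76 ± 0.23, 0.069) and Tat (1.64 ± 0.49, 0.0705), the last with the largest value of the 47.

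**Figure D4:**
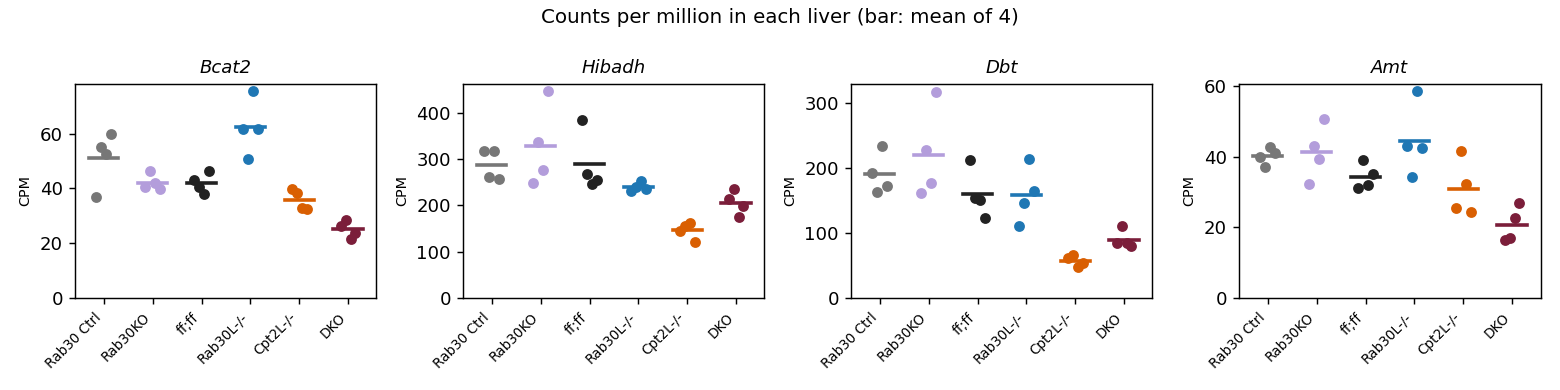
Points are single livers and bars the mean of 4, in CPM on axes that start at 0, for Bcat2, Hibadh, Dbt and Amt over the 6 groups. By group mean Bcat2 is highest in Rab30L-/- and lowest in DKO livers, and Hibadh and Dbt are lowest in Cpt2L-/- livers.

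Other genes of the same pathways were followed from a list of enzymes, carriers and regulators. Of 66 such genes with counts, 62 were tested in both comparisons, and 8 were higher and 26 lower in Cpt2L-/- livers, and 3 higher and 26 lower in DKO against Rab30L-/-. Over all genes the shares were 11.9% in each direction and then 14.9% higher and 15.8% lower. The medians of the 62 were -0.46 and -0.37. In Cpt2L-/- livers the later steps of lysine were lower for 4 and higher for 1 of 5, and the later steps and regulators of branched chain breakdown lower for 6 and higher for 2 of 14. The amino acid transporters were lower for 6 and higher for 3 of 12.

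Among the largest falls in Cpt2L-/- livers were Slc3a1, a subunit of the cystine carrier, with 15.4-fold (-3.94 ± 0.32, adjusted p = 6.70e-06), the neutral amino acid carrier Slc43a1 (-2.77 ± 0.40, 0.000599) and the glutamate carrier Slc1a2 (-2.51 ± 0.18, 2.01e-06). Slc3a1 and Slc43a1 were also lower in DKO against Rab30L-/- (-3.89 and -1.59). Slc3a1 went from 38.5, 20.9, 43.4 and 57.8 CPM in floxed controls to 1.92, 3.78, 2.14 and 2.62 in Cpt2L-/-, and from 32.5, 109, 34.1 and 61.9 in Rab30L-/- to 2.65, 2.45, 3.84 and 6.8 in DKO livers. Slc1a2, which is also a pericentral marker, was at -0.08 in that comparison, and it was higher in DKO than in Cpt2L-/- livers (1.53 ± 0.23, adjusted p = 0.0086).

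The 4 largest rises were Slc3a2, the shared heavy chain of amino acid exchangers (1.52 ± 0.24, adjusted p = 0.000534), the glycine carrier Slc6a9 (1.52 ± 0.22, 0.000254), Aldh18a1, which starts proline synthesis (1.41 ± 0.37, 0.0144), and the alanine and serine carrier Slc1a4 (1.26 ± 0.26, 0.00337). Slc3a2 (1.36), Slc6a9 (2.11) and Slc1a4 (1.42) were also higher in DKO against Rab30L-/-, and Aldh18a1 did not pass (1.34). Aldh18a1 was low throughout, at 0.349 to 0.889 CPM in floxed controls and 1.09 to 1.83 in Cpt2L-/- livers. Slc3a2 was at 20.8, 37.6, 45 and 42.5 CPM in floxed controls and 77.8, 96, 137 and 114 in Cpt2L-/- livers, which did not overlap.

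Among 12 transcriptional and hormonal regulators 0 were higher and 3 were lower in each comparison, where 11.9% and 15.8% of all genes were lower. In Cpt2L-/- livers these were Klf15 (-1.32 ± 0.16, adjusted p = 9.70e-05), a factor known for driving amino acid breakdown in fasting, Foxo1 (-1.02 ± 0.17, 0.000681) and Cebpa (-0.54 ± 0.17, 0.0294). In DKO against Rab30L-/- they included Cebpa (-1.20 ± 0.20) and Klf15 (-0.93 ± 0.17). The glucagon receptor Gcgr was at 0.18 and -0.14, the glucocorticoid receptor Nr3c1 at -0.44 and -0.22, and Atf4 at 0.43 and 0.45, and these did not pass. The regulators named here were chosen after their values were seen.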

How the data were processed

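Total RNA of 24 mouse livers was made into libraries and sequenced by a service laboratory, by its standard protocol. Library selection and strand setting are not given in the sources used here. The deposited counts are raw reads per gene (not normalised), and the authors also deposited FPKM values, scaled for gene length and library. HISAT2, DESeq2, and the builds GRCm38 and mm10 are named in the submitters' processing notes, with no version. The authors' tables of pairwise fold changes and p-values were not used.

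Groups came from the labels, and each library is a separate liver. The lowest chi-square per degree of freedom between libraries of a group was 13.39 over 36 pairs, so none was a duplicate. Liver numbers only name samples. Counts were filtered with filterByExpr, scaled by TMM and tested with edgeR 4.0.16 (glmQLFit, robust, glmQLFTest) in R 4.3.3, on the 8 libraries of each comparison or on 16 for the interaction, with Benjamini-Hochberg adjustment over all genes tested. A gene passed at an adjusted p under 0.05 and at least 1.2-fold. The SE was taken as the log2 fold change, without its sign, divided by the root of F. CPM used TMM over all 24 libraries. The fits were tested on simulated data. A first requirement on the share of changed genes recovered was not met by the interaction. After that result it was lowered and then replaced by requirements on sign, size and false calls. Recovery was lowest for the interaction and next lowest for Rab30KO against Rab30 Ctrl, so few calls there say little.

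Alternatives were DESeq2 1.42.0 size factors and Wald test, limma-voom (3.58.1) with sample weights, no filter, 10 counts in every library, 1 fit over 24 libraries, no fold threshold, p under 0.05 without adjustment, and each library left out. Values per liver are given for the 15 members with the largest mean change that passed in both Cpt2 comparisons, for those that passed in a Rab30 comparison or the interaction, and for Cps1. From the other pathway genes the 4 largest rises and the largest falls are given. A few genes and 1 motif that these rules would name are not reported here. Members, lists and rules were chosen with earlier results of these data known. Coordinates of 46 members in the count table equal GENCODE M21.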

Additional observations from a re-analysis of the deposited data

Results flagged for a closer look

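Among the 282 sets of 4 livers (47 members in 6 groups), 22 held a liver whose CPM stood apart from the other 3 by Dixon's criterion, which chance meets in about 1 set in 20. In floxed control livers Hpd was at 5068 CPM in liver 3 against 3016 to 3114 in the rest, and Sdsl at 96.5 in liver 3 against 32.1 to 36.7. Liver 1 of that group held Fah at 606, Pccb at 183 and Hibadh at 386 CPM. In Rab30L-/- livers Sdsl was at 80.2 CPM in liver 3 against 30.6 to 36.5, Agxt at 767 in liver 3, and Agxt2 at 123 in liver 1 against 169 to 173. In Cpt2L-/- livers Got1 was at 585 CPM in liver 2 against 395 to 418, Fah at 289 in liver 4, Bckdha at 52.3 and Bckdhb at 82.3 in liver 3. In DKO livers Dbt was at 111 CPM and Mccc1 at 36.3 in liver 2, and Pccb at 113 in liver 3. In Rab30 Ctrl livers Fah was at 688 CPM in liver 3, and Uroc1 at 422 and Prodh at 212 in liver 1. In Rab30KO livers Slc25a13 was at 658 CPM and Gldc at 181 in liver 4, Hgd at 643 in liver 1 and Prodh at 444.9 in liver 2.

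The effect of Rab30 loss differed with Cpt2 for 2 members by the interaction test, about the 4.06% of all genes that passed: Bcat2, at -1.07 on the log2 scale, and Hibadh, at 0.78. For Hibadh, floxed control liver 1 lay above the other 3 (247 to 267 CPM), and without it the interaction was 0.61 with an adjusted p of 0.0654 in edgeR. Leaving out 1 liver ended the Hibadh call in 13 of 16 cases, as did dropping the filter on low counts and fitting all 24 libraries together.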

How the results depend on the processing

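The counts of members lower with Cpt2 loss (33, 31, 26 and 25 in both) stayed within 1.5 times under each alternative run, and no value reversed. With 1 liver left out they ran from 28 to 33 for Cpt2L-/- against floxed controls, 26 to 30 for DKO against Rab30L-/-, 21 to 27 for DKO against floxed controls and 22 to 25 in both. The small counts moved, and the cause was not tested. For Rab30L-/- against floxed controls (0 higher, 0 lower), DESeq2's Wald test gave 2 higher and 1 lower, limma-voom and no filter 1 lower each, and p without adjustment 4 higher and 2 lower. Of all genes tested, these settings called 2.23%, 1.79%, 0.923% and 11.2%. For DKO against Cpt2L-/- (1 higher, 0 lower), the Wald test gave 6 and 1, limma-voom 8 and 2, no filter 4 and 1, the fit over 24 libraries 0 higher, and p without adjustment 10 and 2, with 0 to 4 higher when 1 liver was left out. The shares of all genes were 7.76%, 11.5%, 2.79%, 0.782% and 21.2%. For the interaction (1 higher, 1 lower), DESeq2 size factors gave 2 higher, the Wald test 4 and 2, limma-voom 4 and 2, no filter 0 and 2, the fit over 24 libraries 0 higher, and p without adjustment 9 and 3, with 0 to 3 higher and 1 to 2 lower when 1 liver was left out. The shares of all genes were 4%, 7.68%, 9.2%, 1.71%, 2.56% and 21.7%. Of the 776 leave-one-out values of the members that passed in a comparison, and of Cps1, 700 kept their call, 75 lost it and 1, of Cps1, gained it. Gains among the other members that did not pass are not counted there.

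No paired analysis was possible because the labels tie groups by litter but do not give the litter of each animal. With 4 livers a group, and for the interaction in particular, the absence of a call shows little. Cre is a difference between the floxed controls and every liver knockout, and fewer hepatocytes and less RNA per hepatocyte cannot be told apart.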
